A study of Rattus norvegicus with 36 samples.

Results

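The cytochrome P450 genes of families 1 to 4 were examined in the lungs of rats instilled with crystalline silica. Members were taken by name: every non-control probe whose gene name was Cyp followed by a family number from 1 to 4, a subfamily letter or letters and a final number. Names with a further suffix or a slash were left out, so the counts may not cover every gene of these families. The rule found 58 gene names, measured by 82 probes, among the 25597 gene names on the array. Of these, 52 passed a filter on low signal and were tested together with the other genes (23940 in all). The 6 that did not pass were Cyp2c12, Cyp2c13, Cyp2c24, Cyp2d2, Cyp2ac1 and Cyp3a2. Female Sprague Dawley rats, 13 weeks old when instilled, received 10 mg of DQ-12, a crystalline quartz dust, or the saline vehicle alone through the trachea. The accessory lobe of the lung was taken 1, 30 or 180 days later (D1, D30 and D180), from 6 exposed and 6 vehicle rats at each time, with 1 single-color array per rat. The quartz had been ground before use and was given once at 1 dose, and all rats were female, so no dose relation and no male lung was measured. The RNA came from a whole lobe, and fewer cells of a type and less RNA per cell cannot be told apart in such samples.

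Cytochrome P450 enzymes are heme proteins of the endoplasmic reticulum that insert an oxygen atom into fats, steroids and foreign compounds, with electrons supplied by P450 reductase. Family 1 enzymes are classic targets of the aryl hydrocarbon receptor and act on polycyclic hydrocarbons. Families 2 and 3 hold most of the drug- and steroid-metabolizing enzymes, and family 4 holds mainly enzymes that hydroxylate the ends of fatty acids. Most are best known from liver, while club cells of the small airways are a known pulmonary site of Cyp2f, Cyp2b and Cyp4b1, which activate inhaled toxicants.

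P450 genes lie in clusters of near copies, so the sequence each probe reads decides what its signal stands for. Of the 52 tested members, 45 had a probe whose listed RefSeq transcripts belonged to 1 gene (transcripts named through RefSeq, assembly GRCr8). For Cyp2b12 that gene was Cyp2b14 and not the named member, so its signal may not stand for Cyp2b12. Another 2 had a probe listing several genes. For the tested probes of 5 members (Cyp2d4, Cyp2u1, Cyp2w1, Cyp3a73 and Cyp4f37) no listed transcript could be matched. The Cyp2b2 probe listed both Cyp2b1 and Cyp2b2, and the Cyp4a3 probe listed Cyp4a2 as well, so these signals could not be assigned to 1 gene. Probes of Cyp2d1 and Cyp2d5 were identical at 56 of 58 overlapping bases, those of Cyp4f5 and Cyp4f37 at 50 of 51, and those of Cyp2a1 and Cyp2a2 at 44 of 50, so the members of each pair may read one another's transcripts. The probes below are shown because they carry, or check, changes described later. Each is written as the sense strand, with its place on build rn4 as the array files give it, and each had at least 1 sense reading frame without a stop. No annotation of rn4 was used, so exons are not given.
Cyp2a3, chr1:81948552-81950011, plus strand: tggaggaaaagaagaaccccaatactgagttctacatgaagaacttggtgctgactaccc
Cyp2b2, chr1:81358908-81358967, plus strand: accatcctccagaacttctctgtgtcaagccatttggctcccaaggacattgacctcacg
Cyp2e1, chr1:200927736-200927795, plus strand: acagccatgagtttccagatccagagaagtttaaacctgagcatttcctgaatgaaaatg
Cyp2d4, second probe, chr7:120743218-120743277, minus strand: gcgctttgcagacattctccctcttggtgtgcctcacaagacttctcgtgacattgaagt
Cyp4b1, second probe, chr5:135922246-135922305, minus strand: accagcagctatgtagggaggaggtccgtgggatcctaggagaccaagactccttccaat
The 60 bases of the Cyp2a3 probe spanned 1460 bases of the genome, so it read across at least 1 intron, whereas each of the other 4 matched an unbroken stretch of 60 bases.

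Lungs of vehicle rats held 28 members above background at all times. This was counted where the scanner software called the signal well above background on at least 4 of the 6 vehicle arrays at each time, and 24 of the 28 were so called on all 36 arrays. In family 1, Cyp1b1, which acts on estrogens and polycyclic hydrocarbons, was above background, whereas the probe of Cyp1a1, the textbook aryl hydrocarbon receptor target, was well above background on 2 of 36 arrays and that of Cyp1a2 on 3. In family 2 these were Cyp2a3, Cyp2b2, Cyp2b3, Cyp2b21, Cyp2c7, Cyp2c23, Cyp2d1, Cyp2d4, Cyp2d5, Cyp2e1, Cyp2f4, Cyp2g1, Cyp2j3, Cyp2j4, Cyp2s1, Cyp2t1, Cyp2u1 and Cyp2ab1. The Cyp2b2 probe also lists Cyp2b1, so its signal may come from either gene or both. In family 3, 1 of the 5 members taken by name, Cyp3a9, was above background, on all 36 arrays. In family 4 these were Cyp4a8, Cyp4b1, Cyp4f5, Cyp4f6, Cyp4f17, Cyp4f18, Cyp4f37 and Cyp4v3. Another 25 members were above background on some arrays without meeting that rule. For the remaining 5, no array gave a signal well above background: Cyp2a1, Cyp2c24, Cyp2d2, Cyp2j16 and Cyp4x1.

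**Figure D1:**
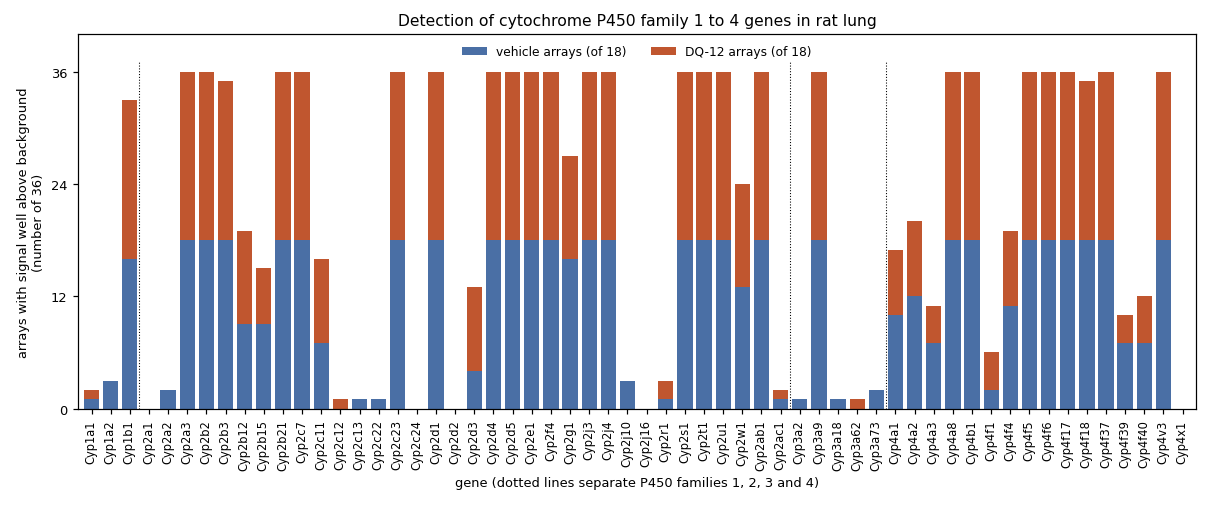
Number of the 36 arrays on which the tested (or, for untested members, brightest) probe of each of the 58 genes was well above background, with the 18 vehicle arrays stacked below the 18 DQ-12 arrays. Bars of 36 mark the 24 members seen in every lung, and the near-empty bars of Cyp1a1, Cyp1a2 and most family 3 genes mark those seen in few.

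Detection depended on the probe in several genes. Cyp2c7, known from liver as a retinoic acid hydroxylase, was well above background on 36 arrays by 1 of its 5 probes and on 0 to 2 arrays by the other 4. Second probes of Cyp2d4, Cyp4b1 and Cyp4f6 were well above background on all 36 arrays. The other probes of Cyp4a8 were so on 3 arrays each, although its tested probe was on all 36. Second probes of Cyp2g1 and Cyp4f5 were so on 1 array each, against 27 and 36 by the tested probes. Other probes of Cyp1b1 were so on 9 and 29 arrays (33 by the tested probe), those of Cyp2u1 on 36 and 30, and that of Cyp2ab1 on 27. Signals of the members above background varied little among rats, with a median SD of 0.28 (log2, over the 6 groups), compared with 0.63 for the other 24 tested members.

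Arrays had 51.4% to 75.5% of probes well above background, 0 saturated spots and median correlations between rats of a group of 0.973 to 0.981. Scan days were not balanced. At D1 the scan day of the 6 DQ-12 arrays held 1 vehicle array, and 2 further days held the remaining 5. Both D30 scan days and 2 of the 6 D180 scan days held both groups. At D1, scan day and exposure were therefore nearly inseparable, and the values within that day rest on 1 vehicle rat.

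At D1, Cyp3a9, Cyp2f4, Cyp2a3 and Cyp1a2 were lower in exposed lungs and Cyp2c11 was higher. Counting a fold change of at least 2 with an adjusted p under 0.05 (limma, Benjamini–Hochberg over all 23940 genes), 4 members were lower, 7.69% of the 52 compared with 1.05% of all genes, and 1 was higher, 1.92% compared with 2.02%. By the adjusted p alone, 11 members were lower (21.2%, against 8.62% of all genes) and 2 were higher (3.85%, against 7.58%). In 6 members every exposed rat was below every vehicle rat (11.5%, against 5.96% of all genes), and in 0 was every exposed rat above (5.23% of all genes). The median log2 change was -0.10 over the 52 members, -0.30 over the 28 above background and -0.01 over all genes. With each array scaled to its 75th percentile in place of quantile normalization, the medians were -0.35 for the members and -0.10 for all genes.

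Cyp3a9, a steroid- and drug-hydroxylating enzyme, had the smallest adjusted p of the members. Its signal ran from 8.81 to 9.79 in vehicle rats (median 9.37, normalized log2 signal) and from 7.33 to 8.03 in exposed rats (median 7.93), and the groups did not overlap. This was a 2.83-fold fall (log2 change -1.5 ± 0.15 SE, n = 6 per group, adjusted p = 6.9e-09 in limma). Within the scan day that held both groups the log2 difference was -0.97, and with scan day as a block the adjusted p was 0.027. The 250 bases before the Cyp3a9 start (RefSeq, GRCr8, chr12:21960161-21960410, minus strand) are shown because of that adjusted p. Capitals mark the matches to any of 4 motifs searched on both strands, here TGANTCA, the AP-1 motif, found 2 times:
Cyp3a9 upstream: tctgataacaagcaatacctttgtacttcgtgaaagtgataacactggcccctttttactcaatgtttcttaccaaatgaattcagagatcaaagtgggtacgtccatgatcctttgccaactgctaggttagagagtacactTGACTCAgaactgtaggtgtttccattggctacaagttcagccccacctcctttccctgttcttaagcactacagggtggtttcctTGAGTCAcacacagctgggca

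Cyp2f4, the naphthalene-oxidizing enzyme of club cells, ran from 14.05 to 14.54 in vehicle rats (median 14.32) and from 12.42 to 13.72 in exposed rats (median 13.35). No exposed rat reached the lowest vehicle rat, and the fall was 2.11-fold (log2 change -1.07 ± 0.18, adjusted p = 7.0e-05). Cyp2a3, which activates tobacco nitrosamines in the rat airway, ran from 8.67 to 9.97 in vehicle rats (median 9.51) and from 7.23 to 9.01 in exposed rats (median 8.20). Here 5 of 6 exposed rats were below all vehicle rats, a 2.31-fold fall (log2 change -1.21 ± 0.26, adjusted p = 0.0011). Within the shared scan day the log2 differences were -0.82 for Cyp2f4 and -0.47 for Cyp2a3, and with scan day as a block neither passed (adjusted p = 0.31 and 0.72). With slide as a block they did not pass either (adjusted p = 0.11 and 0.32). Without DQ-12 replicate 2 the fall of Cyp2f4 was under 2-fold, at -0.91 (log2).

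The other 2 members past both thresholds at D1 were near background, and their changes rested on few rats. Cyp1a2, a caffeine- and arylamine-oxidizing enzyme of liver, stood at 7.76 and 7.13 in vehicle replicates 4 and 6 and between 2.20 and 3.77 in the other 4 vehicle rats. The 6 exposed rats lay between 2.19 and 2.50 (median 2.30), and none of their arrays was well above background. The fitted log2 change was -1.94 ± 0.62 (adjusted p = 0.028). With each exposed signal raised to at least the lowest signal well above background on its array, the fall of the mean was 1.66-fold. That value carries no error and rests on vehicle replicates 4 and 6, so it is not a lower limit. Without vehicle replicate 4, vehicle replicate 6 or DQ-12 replicate 2 the adjusted p was 0.053 to 0.10. With scan day as a block the log2 change turned to 0.13 (adjusted p = 0.99), and with slide as a block to 0.14 (adjusted p = 0.99). With normexp the change was -0.70 (adjusted p = 0.018). Cyp2c11, a male-predominant steroid hydroxylase in rat liver, ran from 1.91 to 4.28 in vehicle rats (median 2.91) and from 3.78 to 5.31 in exposed rats (median 4.00), with overlap. Its log2 change was 1.25 ± 0.36 (adjusted p = 0.017), with the probe well above background on 1 vehicle and 4 exposed arrays. The call was lost without vehicle replicate 4 or DQ-12 replicate 2 (adjusted p = 0.056 to 0.064), and with scan day as a block the change was -0.04 (adjusted p = 0.99). It was also lost with the 75th percentile scaling (0.78, adjusted p = 0.091), the deposited log2 values (0.79, adjusted p = 0.091) and normexp (0.22, adjusted p = 0.055).

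**Figure D2:**
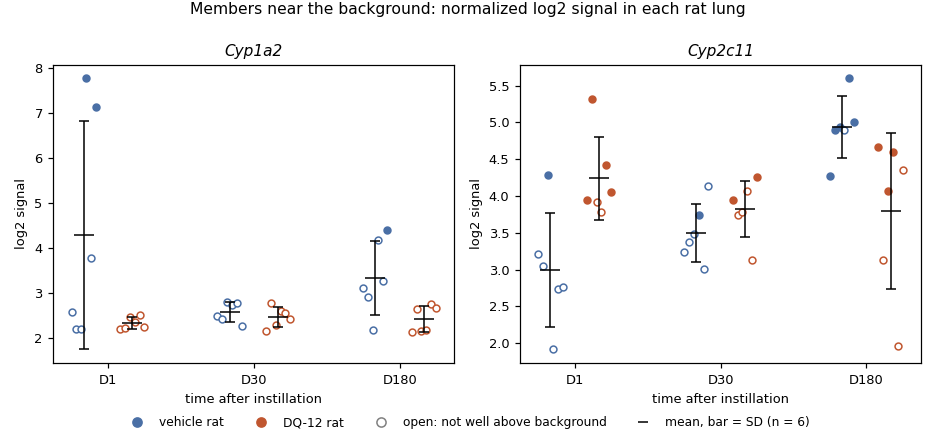
Normalized log2 signal of Cyp1a2 and Cyp2c11 in each rat at D1, D30 and D180, with filled points for arrays well above background and bars for the mean ± SD (n = 6). Only 2 vehicle rats carry the D1 signal of Cyp1a2, at 7.76 and 7.13, and Cyp2c11 lies higher in exposed rats at D1 and lower at D180.

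Another 8 members passed the adjusted p at D1 with smaller changes, and 7 of them were lower. Cyp4b1, a lung fatty acid and toxicant hydroxylase, ran from 14.74 to 15.12 in vehicle rats (median 14.95) and from 14.25 to 14.56 in exposed rats (median 14.38). The groups did not overlap (log2 change -0.55 ± 0.11, adjusted p = 6.2e-04). Its second probe gave -0.57 (adjusted p = 0.085 with every probe tested). Cyp2s1, an epithelial P450 of lung and airway, fell by 0.60 on the log2 scale (adjusted p = 5.8e-04), and Cyp2d4 fell by 0.59 (adjusted p = 1.9e-04). Neither overlapped between groups. For Cyp2d4 the second probe gave -0.17 (adjusted p = 0.60), so its 2 probes differed. The second probe listed a Cyp2d4 transcript, whereas the tested probe had no matched transcript. Cyp2u1, a fatty acid hydroxylase, fell by 0.35 (adjusted p = 0.029) with no overlap, but its other 2 probes gave -0.09 (adjusted p = 0.67) and -0.82 (adjusted p = 0.030 with every probe tested). None of the Cyp2u1 probes had a matched transcript.

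The rest of the D1 calls were less stable. Cyp2e1, the ethanol- and solvent-oxidizing enzyme, fell by 0.65 (log2, adjusted p = 0.031), and the call was lost without vehicle replicate 1, 2, 4 or 6 or DQ-12 replicate 2, 3 or 4 (adjusted p = 0.053 to 0.092). Cyp2c23, an arachidonic acid epoxygenase, fell by 0.47 (adjusted p = 0.021), lost without vehicle replicate 6 or DQ-12 replicate 2 (0.052 to 0.070). Cyp4v3, a fatty acid hydroxylase, fell by 0.41 (adjusted p = 0.032), lost without vehicle replicate 1, 4 or 5 or DQ-12 replicate 2 or 6 (0.058 to 0.105). The call of Cyp2u1 was lost without vehicle replicate 1 or DQ-12 replicate 2 (0.078 to 0.11). Cyp2c7 was higher by 0.94 (adjusted p = 0.040), a call lost without any of 9 rats (vehicle replicates 1, 2, 4, 5 and 6, DQ-12 replicates 1, 2, 3 and 5, adjusted p = 0.051 to 0.10). It was also lost with the 75th percentile scaling and with the deposited log2 values (adjusted p = 0.066 in both), and the median of its probes gave -0.02. The calls of Cyp3a9, Cyp2f4, Cyp2a3, Cyp2d4, Cyp2s1 and Cyp4b1 remained whichever of the 12 rats was left out. Without DQ-12 replicate 2, 2 members passed both thresholds and 6 the adjusted p alone.

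Scan day touched these calls as a group. Within the shared scan day 11 of the 13 members called at D1 had the same sign as over all rats, the exceptions being Cyp1a2 and Cyp2c11. The members were called on arrays that include these, so agreement in sign was partly built in. The matching share of all called genes was not counted. With scan day as a block 1 of the 13 calls was left, Cyp3a9, and with slide as a block 2, Cyp3a9 (log2 change -1.02, adjusted p = 0.048) and Cyp2s1 (-0.68, adjusted p = 0.050). With scan day as a random block 6 of the 13 remained: Cyp2a3, Cyp2d4, Cyp2f4, Cyp2s1, Cyp3a9 and Cyp4b1.

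At D30, 0 members passed both thresholds, against 0.915% of all genes higher and 0.138% lower. Unadjusted p values (limma) were under 0.05 for 13 members, some lower and some higher, beside 17 at D1 and 17 at D180. The share of all genes was not counted, so these counts have no comparison. A second probe of Cyp4b1 passed both thresholds when every probe was tested (log2 change -1.06, adjusted p = 0.0036), while the tested probe gave -0.36 (adjusted p = 0.062). By the adjusted p alone 3 members were lower (5.77%, against 1.24% of all genes) and 2 higher (3.85%, against 2.74%). Cyp2e1 ran from 8.64 to 9.79 in vehicle rats (median 8.86) and from 7.69 to 8.49 in exposed rats (median 8.32), without overlap, and fell by 0.80 (log2, adjusted p = 0.025). The Cyp2b2 probe, which also lists Cyp2b1, fell by 0.62 (adjusted p = 0.030) and Cyp2b21 by 0.76 (adjusted p = 0.040). Cyp2d1 and Cyp2d5, drug-oxidizing enzymes read by near-identical probes, were higher by 0.63 (adjusted p = 0.037) and 0.65 (adjusted p = 0.037). Cyp2a3 was separated between groups, with vehicle rats from 8.72 to 9.63 and exposed rats from 8.07 to 8.36, but its log2 change of -0.86 had an adjusted p of 0.051. Separation of this kind held for 2 members lower (3.85%, against 0.547% of all genes) and 0 higher (1.81% of all genes).

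Each of the 5 calls at D30 was lost in at least 1 fit without 1 rat. That of Cyp2e1 was lost without vehicle replicate 2 or 6 or DQ-12 replicate 2 (adjusted p = 0.067 to 0.095), and that of Cyp2b2 without vehicle replicate 2 or 5 or DQ-12 replicate 1, 2, 3 or 4 (0.055 to 0.10). Cyp2b21 was lost without vehicle replicate 1, 2, 5 or 6 or DQ-12 replicate 1, 4 or 6 (0.071 to 0.16). Cyp2d1 was lost without vehicle replicate 1, 2, 3, 5 or 6 or DQ-12 replicate 1, 4 or 6 (0.051 to 0.12), and Cyp2d5 without vehicle replicate 1, 2, 3 or 6 or DQ-12 replicate 1, 4 or 6 (0.064 to 0.12). Within both scan days all 5 kept their sign, with scan-day log2 differences for Cyp2e1 of -0.64 and -0.67. The same arrays gave the calls, so this agreement was partly built in and is no separate check. With scan day as a block 0 of the 5 passed, and with it as a random block 0 passed (adjusted p for Cyp2e1 of 0.13 and 0.063).

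At D180, 2 members were lower past both thresholds (3.85%, against 0.773% of all genes) and 0 were higher (2.86% of all genes). By the adjusted p alone 9 were lower (17.3%, against 9.0%) and 3 higher (5.77%, against 7.82%). Every exposed rat was below every vehicle rat in 4 members (7.69%, against 3.45%) and above in 0 (3.82% of all genes). The median log2 change was -0.29 over the 52 members, -0.29 over the 28 above background and -0.03 over all genes.

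Cyp2e1 fell most among the members above background. It ran from 9.38 to 10.72 in vehicle rats (median 9.76) and from 8.11 to 9.19 in exposed rats (median 8.83), a 2.13-fold fall with no overlap (log2 change -1.09 ± 0.21, adjusted p = 3.0e-04). The log2 differences within the 2 scan days that held both groups were -0.92 and -1.32, and with scan day as a block the change was -1.02 (adjusted p = 0.0025). Slides were nearly all confounded with the groups at D180, where 1 slide held both with 1 rat each, and with slide as a block the change was -0.51 (adjusted p = 0.78). The change was under 2-fold without vehicle replicate 6 (log2 change -0.92) or DQ-12 replicate 2 (-0.96). The 250 bases upstream of Cyp2e1 (RefSeq, GRCr8, chr1:205269717-205269966, plus strand) are shown because Cyp2e1 was the 1 member lower past the adjusted p at all 3 times. Capitals mark the 1 match to TTGCNNAA, a C/EBP motif:
Cyp2e1 upstream: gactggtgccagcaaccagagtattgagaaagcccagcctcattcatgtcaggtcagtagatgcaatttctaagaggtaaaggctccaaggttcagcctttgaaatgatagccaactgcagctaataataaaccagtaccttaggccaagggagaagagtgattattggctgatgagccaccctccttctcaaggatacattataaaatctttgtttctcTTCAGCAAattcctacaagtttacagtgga

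Cyp2d4 had the smallest adjusted p of the members at D180, by a probe without a matched transcript. It ran from 8.44 to 9.04 in vehicle rats (median 8.71) and from 7.51 to 8.10 in exposed rats (median 7.87), and fell by 0.91 (log2, ± 0.11, adjusted p = 1.7e-07). The second probe, which listed a Cyp2d4 transcript, fell by 0.70 (adjusted p = 0.0077 with every probe tested). Cyp4b1 ran from 15.49 to 16.02 in vehicle rats (median 15.81) and from 14.93 to 15.19 in exposed rats (median 15.18), and fell by 0.64 (adjusted p = 6.7e-05). The second Cyp4b1 probe fell by 0.62 and did not pass (adjusted p = 0.057 with every probe tested). Cyp2f4 ran from 13.85 to 14.59 in vehicle rats (median 14.25) and from 13.09 to 13.84 in exposed rats (median 13.58), and fell by 0.72 (adjusted p = 0.0040). In these 3 genes no exposed rat reached the lowest vehicle rat. The Cyp2b2 probe, which also lists Cyp2b1, fell by 0.69 (adjusted p = 0.0033), and 5 of 6 exposed rats were below all vehicle rats. All of these passed with scan day as a block (adjusted p = 4.2e-05 for Cyp2d4, 0.0059 for Cyp4b1, 0.037 for Cyp2f4 and 0.014 for Cyp2b2). With slide as a block, where 1 slide with 1 rat of each group carried the D180 comparison, none of the 12 calls of D180 was kept (adjusted p = 0.15 to 0.97).

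**Figure D3:**
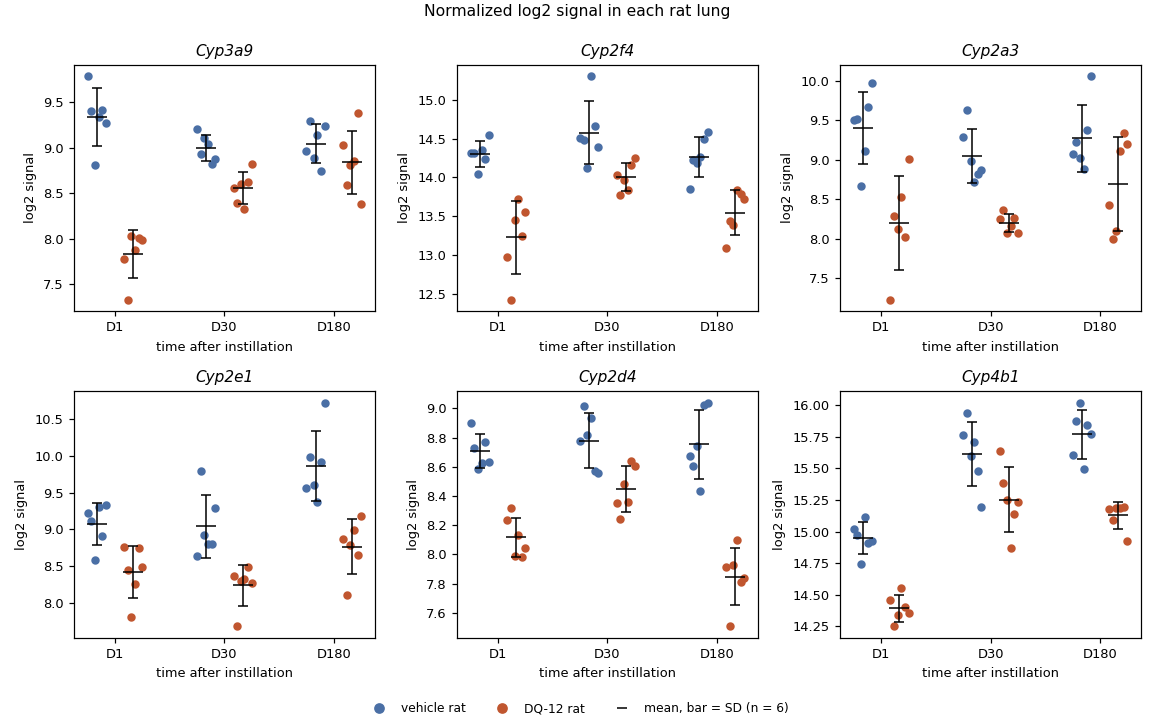
Normalized log2 signal of Cyp3a9, Cyp2f4, Cyp2a3, Cyp2e1, Cyp2d4 and Cyp4b1 in each vehicle and DQ-12 rat at D1, D30 and D180, with the mean and SD (n = 6). Exposed rats lie below all vehicle rats at D1 in Cyp3a9, Cyp2f4, Cyp2d4 and Cyp4b1, at D30 in Cyp2a3 and Cyp2e1, and at D180 in Cyp2f4, Cyp2e1, Cyp2d4 and Cyp4b1.

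Of the 4 tested members of the Cyp2j group, whose enzymes make epoxides of arachidonic acid, 2 were lower and 1 higher at D180 by adjusted p. The fourth, Cyp2j10, had a log2 change of -0.62 (adjusted p = 0.56). Cyp2j3 fell by 0.74 (adjusted p = 0.0079) and Cyp2j4 by 0.85 (adjusted p = 0.021), the latter lost without vehicle replicate 4 or 6 or DQ-12 replicate 2 (0.054 to 0.059). In tests of the difference, the D180 changes of these genes did not pass against those at D1 (adjusted p = 0.59 and 0.76) or D30 (0.40 and 0.61). Cyp2j16 had a log2 change of 0.84 (adjusted p = 0.049), but no array gave its probe a signal well above background, so it has no measured fold, and the call was lost without any of 9 rats (vehicle replicates 1 to 6, DQ-12 replicates 1, 2 and 5, adjusted p = 0.059 to 0.18) and with the 75th percentile scaling (adjusted p = 0.11) or normexp (0.12, adjusted p = 0.22). Cyp2t1 fell by 0.39 (adjusted p = 0.021), lost without vehicle replicate 6 or DQ-12 replicate 3 (0.064 to 0.069). Cyp2d1 was higher by 0.65 (adjusted p = 0.0095) and Cyp2d5 by 0.62 (adjusted p = 0.016), the latter lost without vehicle replicate 2 (0.061). Cyp2c11 ran from 4.27 to 5.60 in vehicle rats (median 4.92) and from 1.97 to 4.66 in exposed rats (median 4.22), with a log2 change of -1.14 ± 0.36 (adjusted p = 0.027). It was well above background on 5 vehicle and 3 exposed arrays, and the call was lost without vehicle replicate 5 or DQ-12 replicate 2 or 5 (0.072 to 0.11). With normexp the change was -0.25 (adjusted p = 0.021). The calls of Cyp2e1, Cyp2d4, Cyp4b1, Cyp2f4, Cyp2b2, Cyp2j3 and Cyp2d1 remained whichever rat was left out. Within both scan days that held both groups all 12 members called at D180 kept their sign. Those arrays were among the ones that gave the calls, so this agreement was partly built in. With scan day as a block 10 of the 12 passed.

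Across the 3 times 21 members passed the adjusted p at least once, 18 of them above background in vehicle lung. Cyp2e1 passed at all 3 times, 7 members passed at 2 times (Cyp2b2, Cyp2c11, Cyp2d1, Cyp2d4, Cyp2d5, Cyp2f4 and Cyp4b1), and 13 at 1 time. Shares of all genes passing at 1, 2 or 3 times were not counted, so these counts have no comparison. The 10 members above background that passed at no time were Cyp1b1, Cyp2b3, Cyp2g1, Cyp2ab1, Cyp4a8, Cyp4f5, Cyp4f6, Cyp4f17, Cyp4f18 and Cyp4f37, with log2 changes from -0.60 to 0.37 and adjusted p values of at least 0.10. The 5 Cyp4f genes among them, which inactivate leukotriene B4 and hydroxylate fatty acids, had log2 changes from -0.41 to 0.14, and their 95% intervals over the 3 times reached from -0.90 to 0.61. For Cyp4a8 the 95% intervals over the 3 times reached from -1.32 to 0.40, so a fall of 2-fold lay within them. The 21 tested members outside the 28 that passed at no time had log2 changes from -1.54 to 0.85 (adjusted p of at least 0.11).

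**Figure D4:**
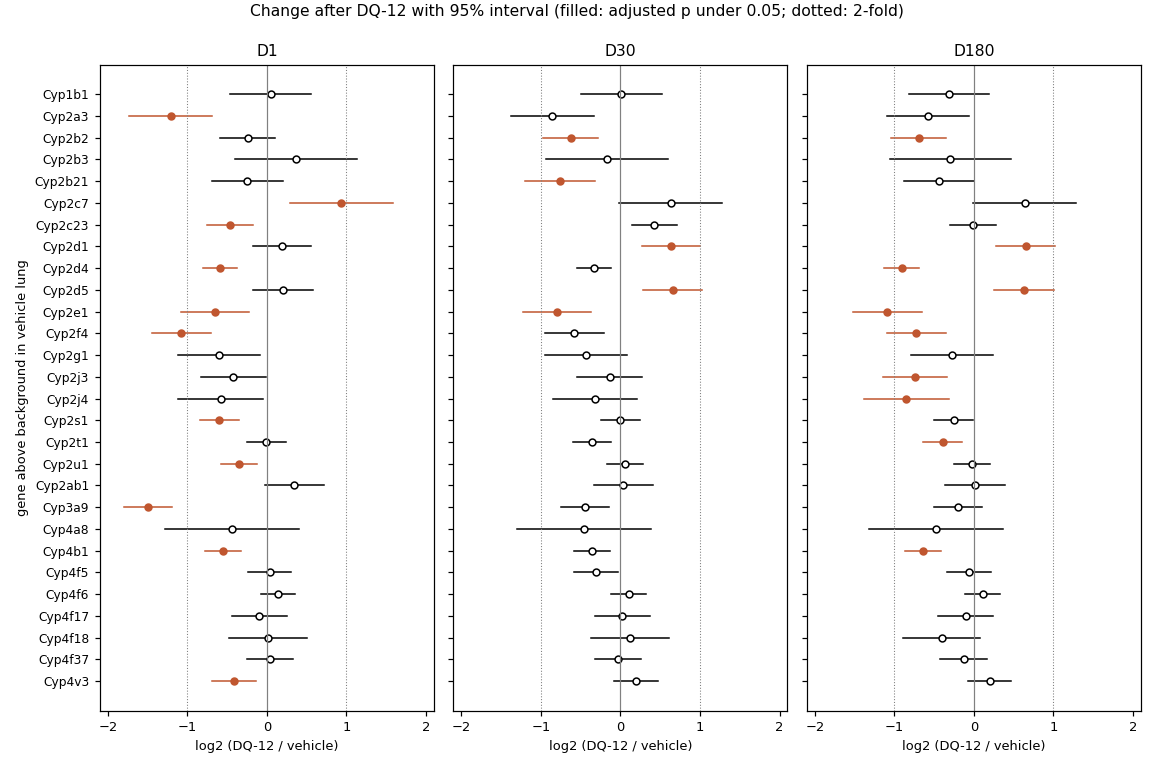
Log2 ratio of DQ-12 to vehicle with its 95% interval from limma (n = 6 per group) for the 28 members above background in vehicle lung, at D1, D30 and D180. Filled points have an adjusted p under 0.05, dotted lines mark 2-fold, and the 5 Cyp4f genes lie between -0.41 and 0.14.

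The change differed between times in few members. Between D1 and D30, 2 members differed (3.85%, against 2.18% of all genes). For Cyp3a9 the later log2 change was higher by 1.06 ± 0.21 (adjusted p = 0.0043), from -1.5 at D1 to -0.44 at D30, where it did not pass (adjusted p = 0.090). For Cyp2c23 it was higher by 0.90 ± 0.20 (adjusted p = 0.012), from -0.47 to 0.43, of which the D30 value did not pass (adjusted p = 0.085). Between D1 and D180, 2 members differed (3.85%, against 4.55%): Cyp3a9, higher by 1.30 ± 0.21 at D180 (adjusted p = 2.5e-04), and Cyp2c11, lower, with a fitted difference of -2.39 ± 0.52 (adjusted p = 0.0051). The Cyp2c11 probe was well above background on 16 of 36 arrays, and its fitted difference was -0.47 with normexp (adjusted p = 0.0084) and -0.36 with slide as a block (adjusted p = 0.97). Between D30 and D180, 0 members differed, against 0.246% of all genes, and the smallest adjusted p among members was that of Cyp2d4 (0.086). The differences against D1 share the 12 D1 rats, so those of Cyp3a9 at D30 and D180 rest on the same D1 arrays. With scan day as a block none of the 4 differences passed (adjusted p = 0.15 to 0.77).

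Position on rn4 grouped the members further. Tested members whose probes lay within 1 Mb of each other formed 6 clusters. The largest, chr1:81008468-82233110, held 12 members of the Cyp2a, Cyp2b, Cyp2f, Cyp2g, Cyp2s and Cyp2t groups. In it 3 members were lower at D1 (Cyp2a3, Cyp2f4 and Cyp2s1), 2 at D30 (Cyp2b2 and Cyp2b21) and 3 at D180 (Cyp2b2, Cyp2f4 and Cyp2t1), and 0 were higher at any time. The Cyp4f cluster, chr7:13080965-13609170, held 8 members and 0 calls at any time. Of these, Cyp4f1, Cyp4f4, Cyp4f39 and Cyp4f40 did not meet the rule for above background. In the Cyp2d cluster, chr7:120741633-120781367, Cyp2d4 was lower at D1 and D180 while Cyp2d1 and Cyp2d5 were higher at D30 and D180. Of all genes 8.62%, 1.24% and 9.0% were lower and 7.58%, 2.74% and 7.82% higher at D1, D30 and D180. No cluster was tested against these shares. Of the 45 tested members with an upstream sequence in RefSeq, 11 held TTGCNNAA within 250 bases of the start, compared with 9.2% of all 27457 promoters, of which 5 were lower at 1 or more times (Cyp2a3, Cyp2b2, Cyp2b21, Cyp2e1 and Cyp2j4, of 16 lower members searched) and 6 were not (Cyp2b3, Cyp2b12, Cyp2b15, Cyp2c22, Cyp2g1 and Cyp2w1). TGANTCA was held by Cyp3a9 and Cyp3a62 (6.36% of all promoters), TGTTTAC, a FOXA motif, by 5 members (3.25%) and GCGTG, the aryl hydrocarbon receptor core, by 12 (27.2%). Overlap between motifs was not counted, and these matches describe the letters only.

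Partners and regulators of the P450 enzymes had few calls, and their difference from all genes was not tested (of all genes, 8.62%, 1.24% and 9.0% lower and 7.58%, 2.74% and 7.82% higher at the 3 times). Of 17 genes for P450 reductase, cytochrome b5 and heme turnover, all well above background on every array, 2 were higher and 2 lower at D1, 1 and 1 at D30, and 1 and 2 at D180 (adjusted p), with medians of 0.03, -0.01 and 0.02. Hmox1, the heme-degrading oxygenase, was higher by 0.74 at D1 (adjusted p = 0.0053), 1.00 at D30 (8.3e-04) and 1.55 at D180 (2.1e-07). Cpox, an enzyme of heme synthesis, fell by 1.02 at D1 (7.8e-04), and Por, the reductase itself, fell by 0.80 at D30 (0.030). Among 10 tested genes of the aryl hydrocarbon receptor pathway 0 were higher and 1 was lower at D1, none passed at D30, and 1 was higher and 1 lower at D180. Ahr, the receptor, fell by 0.42 at D180 (0.0046), and Ugt1a6, a glucuronosyltransferase, fell by 0.35 at D1 (0.041) and was higher by 0.51 at D180 (0.0021). Of 8 other regulators, Ppara fell by 0.76 at D1 (0.0035) and Cebpa was higher by 0.35 at D180 (0.043).

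Of 24 other enzymes that handle foreign compounds, 7 were lower and 0 higher at D1, 5 and 0 at D30, and 11 and 1 at D180, with medians of -0.36, -0.20 and -0.35. Of all genes 8.62%, 1.24% and 9.0% were lower and 7.58%, 2.74% and 7.82% higher at these times, and the difference of the list from all genes was not tested. Ces1d, a carboxylesterase, fell by 1.33 at D1 (adjusted p = 2.6e-07), and Fmo2, the flavin monooxygenase of lung, fell by 0.86 (0.030), 0.98 (0.036) and 1.20 (0.0018) at the 3 times. Akr1b8, an aldo-keto reductase, was higher by 1.86 at D180 (7.9e-04). Of the 19 tested P450 genes outside families 1 to 4, 1 was higher and 1 lower at D1, 1 and 0 at D30, and 2 and 1 at D180, with medians of 0.01, -0.00 and 0.33. Cyp51, the demethylase of cholesterol synthesis, was higher at all 3 times (log2 changes 1.05, 0.60 and 1.27), with no overlap between groups at any of them.

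**Figure D5:**
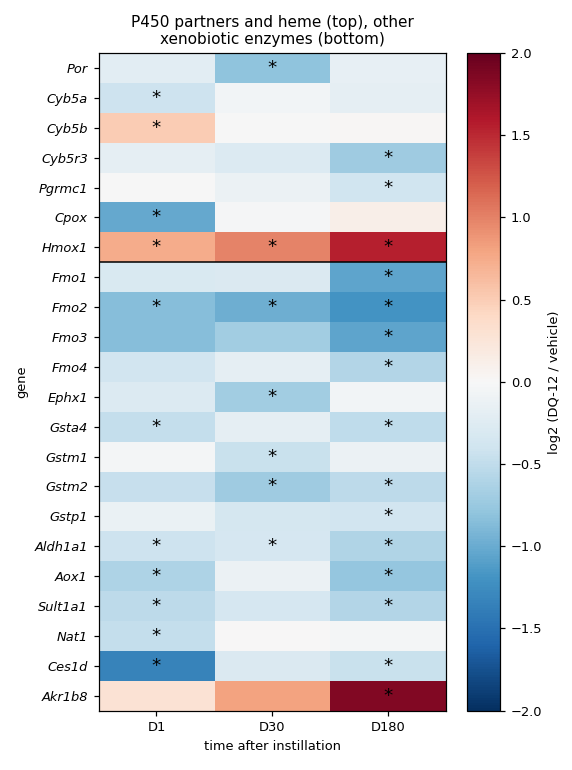
Log2 ratio of DQ-12 to vehicle as color (blue lower, red higher after DQ-12) in rows of genes and columns of times, for the genes of 2 lists that passed an adjusted p under 0.05 (asterisks) at 1 or more times, P450 partners and heme genes above the line and other xenobiotic enzymes below it. Hmox1 is higher at all 3 times, and Fmo2 is lower at all 3.

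Cell type markers were read beside these changes, by adjusted p. Of all genes 8.62% were lower and 7.58% higher at D1, 1.24% and 2.74% at D30, and 9.0% and 7.82% at D180. Of 7 club cell markers, 1 was lower (Scgb3a2, log2 change -0.41, adjusted p = 0.029) and 1 higher (Muc5b, 1.17, adjusted p = 0.021) at D1. Scgb1a1, the defining club cell secretoglobin, had log2 changes of -0.35, -0.33 and -0.11 (adjusted p = 0.063, 0.17 and 0.64). The summed club cell level ran from 17.46 to 17.73 in vehicle and 17.14 to 17.45 in exposed rats at D1, and from 17.16 to 17.68 and 16.79 to 17.45 at D180 (log2). Of 6 alveolar type 1 cell markers 3 were lower at D1 and 6 at D180, with summed levels of 18.18 to 18.34 in vehicle and 17.78 to 18.16 in exposed rats at D1, and 18.33 to 18.65 and 17.82 to 18.07 at D180. Of 9 endothelial markers 0 passed at D1 and 8 were lower at D180. Smooth muscle markers were lower in 3 of 5 at D180 and ciliated cell markers in 1 of 6. Summed endothelial levels at D180 ran from 17.06 to 17.22 in vehicle and 16.22 to 16.93 in exposed rats. Summed ciliated cell levels at D180 ran from 16.19 to 16.65 and 15.63 to 15.95, and smooth muscle levels from 12.76 to 13.19 and 12.12 to 12.79. Of 6 fibroblast markers 1 was higher and 1 lower at D1, and 0 passed at D30 or D180. Of 10 alveolar type 2 cell markers 2, 3 and 4 were higher and 1, 0 and 1 lower at the 3 times. At D30, 4 of 8 macrophage and monocyte markers were higher and 0 lower, and 2 of 7 neutrophil markers were higher and 1 lower. At D180, 4 of 8 macrophage and monocyte markers were higher and 1 lower, and 4 of 7 neutrophil markers were higher and 1 lower. Macrophage and monocyte markers had summed levels of 15.42 to 16.07 in vehicle and 16.54 to 17.19 in exposed rats at D180, and neutrophil markers 13.04 to 13.98 and 15.52 to 16.04. The part of these cell types in the P450 changes was not tested. Hepatocyte markers were near background, 2 of 10 being well above it on all arrays, and Alb, the defining serum protein of liver, was so on 1 of 36 arrays.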

How the data were processed

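Per the file headers, Agilent Feature Extraction 12.0.1.1 produced the deposited spot intensity values (gProcessedSignal, background-subtracted) of 36 single-color arrays. The authors also deposited a table of log2 values, which equals those intensities less each array's 75th percentile, centered per probe on its median, and was used as an alternative. Log2 intensities without control spots and outlier spots were averaged per probe, kept where 6 or more arrays exceeded the 95th percentile of negative control spots, quantile normalized, and reduced to the probe with the highest mean per gene name. Group means were fitted with limma 3.58.1 in R 4.3.3 (2-sided, Benjamini–Hochberg over 23940 genes per contrast). A call needed an adjusted p under 0.05, with or without a fold of at least 2. The fit was tested on simulated data. Groups came from the sample labels, with 1 array per rat, and the number of arrays limits the precision. The members and gene lists were chosen with earlier results of these data known. Members past a threshold at any time, members above background that passed none, those failing the filter, and at most the 4 largest changes per pathway list and time could be named. Alternatives covered scaling, background correction, deposited values, filters, probe summaries, separate times, moderation, replicate block, scan day, slide and each rat left out. The label replicate numbers do not pair the rats (6 of 18 correlations of deviations over 0.1).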

Additional observations from a re-analysis of the deposited data

Results flagged for a closer look

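Among the 126 groups of 6 rats examined for the 21 members called at any time, 5 held 1 rat far from the other 5, where chance alone marks about 1 in 20 groups. All 5 were the lowest of their group and exposed. Cyp3a9 in DQ-12 D1 replicate 2 was at 7.33 (log2), below 7.78 to 8.03 in the others. Cyp2u1 in the same rat was at 9.84, below 10.21 to 10.37. Cyp2d1 in DQ-12 D1 replicate 5 was at 7.92, below 8.59 to 8.87. Cyp2e1 in DQ-12 D30 replicate 2 was at 7.69, below 8.27 to 8.49. Cyp4b1 in DQ-12 D180 replicate 6 was at 14.93, below 15.09 to 15.19.

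The response differed between times in a test of the difference itself for 3 members. The later change less the earlier was 1.06 for Cyp3a9 and 0.90 for Cyp2c23 between D1 and D30, and 1.30 for Cyp3a9 and -2.39 for Cyp2c11 between D1 and D180 (log2). The Cyp2c11 probe was near background, and its difference was -0.47 with normexp. All 4 differences use the D1 rats. With scan day as a block none of the 4 passed.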

How the results depend on the processing

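Past both thresholds at D1, 5 members became 0 with scan day as a block, 1 with slide as a block, 1 with scan day and 3 with slide as random blocks, and 3 with normexp or with the filter on signal well above background. By the adjusted p alone at D1, 13 became 1, 2, 6 and 7 in those 4 block fits. At D30, 0 members past both thresholds became 1 with every probe tested. The 5 by adjusted p became 0 and 1 with scan day and slide as blocks, 0 and 9 as random blocks, 9 with the filter on signal well above background, 8 with trend and robust moderation and 1 with each time fitted alone. At D180, 2 past both thresholds became 0 with normexp and 1 with the 75th percentile scaling, the deposited log2 values, the filter on signal well above background, each time alone, the replicate block or slide as a block, and by adjusted p 12 became 1 with slide as a block, which was none of the 12. The 2 members differing between D1 and D30 became 0 with scan day or slide as a block or scan day as a random block, and the 2 between D1 and D180 became 0 and 1 with scan day and slide as blocks. The 28 members above background in vehicle lung became 51 where 1 vehicle array was enough and 43 over the 95th percentile of the negative controls. The log2 change turned for Cyp1a2 at D1 (0.13 with scan day and 0.14 with slide as a block), Cyp2c11 at D1 (-0.040 with scan day as a block) and Cyp2c7 at D1 (-0.021 with the median of probes). The cause was not tested.

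Leaving out 1 rat gave 2 to 7 members past both thresholds and 6 to 14 by adjusted p at D1, 0 and 0 to 9 at D30, and 0 to 3 and 9 to 12 at D180. It gave 2 to 4 members differing between D1 and D30, 0 to 1 between D30 and D180 and 2 to 3 between D1 and D180. Of the 360 such fits of the 30 calls, 281 kept the call, 79 lost it and 0 changed sign, and all 96 of the 4 differences between times passed. With the replicate block, 12, 5 and 11 members passed the adjusted p at the 3 times. Same-numbered rats had correlations of deviations from -0.131 to 0.218 (median 0.023). Near background, the signal limits what Cyp1a2, Cyp2c11 and Cyp2j16 can show.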
